A study of Rattus norvegicus with 6 samples.

Results

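The miRNAs described here are the miR-200 family (precursors rno-mir-200a, rno-mir-200b, rno-mir-200c, rno-mir-141 and rno-mir-429) and the miR-192 group (rno-mir-192, rno-mir-194-1, rno-mir-194-2 and rno-mir-215). They were chosen by name, with it known from these libraries that their levels vary together, so levels and fold changes are given as descriptions. They are 9 of the 383 rat miRNA precursors with reads, and all 9 had reads in each of the 6 libraries. AR42J, an established line derived from a tumour of the rat exocrine pancreas, was given 200 µM sodium taurocholate for 30 min (3 libraries) or left untreated (3 libraries). Taurocholate is a bile salt that is used to model acute pancreatitis. Both groups are of the same line with no genetic change, and nothing in the labels tells whether a replicate was a culture of its own, so p-values speak of library-to-library spread alone, possibly a technical one.

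The miR-200 family is carried mainly by epithelial cells. In mammals its members repress ZEB1 and ZEB2, which repress E-cadherin, so the family is known for holding cells in an epithelial state. miR-192, miR-194 and miR-215 are abundant in gut, liver and kidney epithelium and are known as targets of HNF transcription factors and of p53. A miRNA finds its targets through its seed, bases 2 to 8, so miRNAs with the same seed share many targets.

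The sequences below show which members share a seed and where the read ends and base changes described later lie. They are from RefSeq (rat assembly GRCr8), written 5′ to 3′ with the seed in capitals.
rno-miR-192-5p: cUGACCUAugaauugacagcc
rno-miR-215: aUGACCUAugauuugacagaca
rno-miR-194-5p: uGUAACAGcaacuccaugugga
rno-miR-200c-3p: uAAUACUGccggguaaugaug
rno-miR-141-3p: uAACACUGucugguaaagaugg
rno-miR-141-5p: uCCAUCUUccagugcaguguug
For miR-200a, miR-200b and miR-429 the hairpin is shown, with the stretch covered by the leading 3p reads in capitals.
Mir200a hairpin: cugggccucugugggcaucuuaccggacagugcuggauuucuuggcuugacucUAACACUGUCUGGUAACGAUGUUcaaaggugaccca
Mir200b hairpin: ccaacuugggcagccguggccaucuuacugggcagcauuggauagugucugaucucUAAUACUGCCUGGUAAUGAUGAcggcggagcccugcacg
Mir429 hairpin: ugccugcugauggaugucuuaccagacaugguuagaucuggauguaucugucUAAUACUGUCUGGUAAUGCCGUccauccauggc

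miR-192-5p and miR-215-5p share the seed UGACCUA, and miR-194-5p of both copies has GUAACAG. miR-200b-3p, miR-200c-3p and miR-429-3p share AAUACUG, while miR-200a-3p and miR-141-3p share AACACUG. The genes lie in pairs or a trio. Mir194-2 (chr1:212994038-212994059 for its 5p arm, plus strand) is followed by Mir192 (chr1:212994232-212994252, plus strand). Mir194-1 (chr13:99382730-99382751, plus strand) is followed by Mir215 (chr13:99383003-99383024, plus strand). Mir141 (3p arm at chr4:159209540-159209561, minus strand) lies beside Mir200c (chr4:159209969-159209989, minus strand). Mir429, Mir200a and Mir200b lie in that order on the minus strand of chromosome 5, with hairpins at chr5:171929682-171929766, chr5:171930717-171930805 and chr5:171931495-171931589.

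Reads aligned to miRNA precursors numbered 3343552, 3780777 and 3637092 in the taurocholate libraries and 3070227, 3987307 and 2791878 in the untreated libraries. Reads of the 9 members were 10382, 3702 and 12411 of these with taurocholate and 8507, 3808 and 3074 without. Their share of all miRNA reads was 0.311%, 0.0979% and 0.341% in the taurocholate libraries, against 0.277%, 0.0955% and 0.110% in the untreated libraries. The share of error-free reads was 50.9% in taurocholate library 1 and between 62.3% and 65.7% in the other 5, so that library stands apart in this share. Any mismatch or gap to the precursor counts as an error here, an added last base included, and why that library differs was not tested. Among markers of the acinar pancreas, miR-148a-3p took 335920 ± 63270 CPM (reads scaled to the same total of miRNA reads in each library) with taurocholate and 381030 ± 36243 CPM in untreated cells (SD, n = 3 each). The other acinar markers, miR-216a, miR-216b and miR-217, had 3, 5 and 5 reads over all 6 libraries, so they were at or near 0 in a line labelled as exocrine pancreas.

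The outcome for the members was a common pattern over libraries that did not follow the groups. Every arm averaging at least 20 CPM lay above its own mean log2 level in taurocholate libraries 1 and 3 and untreated library 1. Each lay below it in taurocholate library 2 and untreated libraries 2 and 3. In untreated library 1 miR-194-2-5p was only 0.15 above its mean on the log2 scale. The miR-200 family summed to 484, 63.7 and 593 CPM with taurocholate and 387, 37.9 and 77.7 CPM in untreated cells. Its mean was 380 ± 279 CPM with taurocholate and 168 ± 191 CPM untreated (SD, n = 3 each), and the difference of 213 CPM lay between the SD of the untreated and that of the taurocholate libraries. The miR-192 group summed to 2621, 915 and 2820 CPM with taurocholate and 2384, 917 and 1023 CPM untreated. Its mean was 2119 ± 1047 CPM with taurocholate and 1441 ± 818 CPM untreated (SD, n = 3 each), and the difference of 677 CPM was below the SD of either group. The highest library exceeded the lowest 15.7-fold for the miR-200 family and 3.08-fold for the miR-192 group. These are levels in the libraries: some member reads carry a base that the rat sequence lacks (given below), and whether all member reads come from AR42J RNA was not tested.

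**Figure D1:**
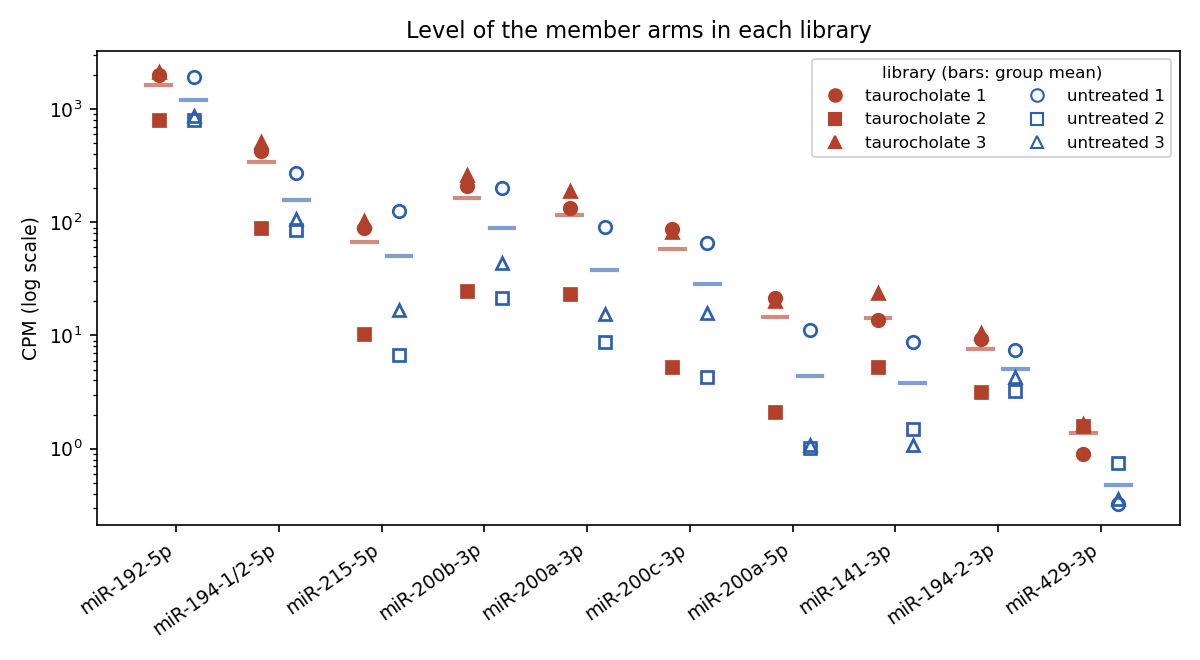
Level of 10 member arms in each library, in CPM on a log axis, with taurocholate libraries (filled) left of untreated libraries (open) and bars at the group means. In 9 arms the groups overlap, with taurocholate library 2 low and untreated library 1 high inside their groups; the sparsely read miR-429-3p (20 reads in all) lies between 0.326 and 1.65 CPM.

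Within the miR-192 group, miR-192-5p was the most abundant arm. It stood at 2022, 795 and 2117 CPM with taurocholate and at 1922, 797 and 864 CPM in untreated cells. Taurocholate library 2 and untreated library 2 were nearly level, and the groups overlap. Its log2 fold change, taurocholate over untreated, was 0.32 ± 0.46 (SE), and ranged from 0.09 to 0.98 as each library was left out in turn.

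miR-194-5p, which its clusters on chromosomes 1 and 13 both encode, summed over all copies to 492, 105 and 582 CPM with taurocholate and 322, 109 and 136 CPM untreated. Most of these reads match both copies equally (5103 reads), while 632 could be placed on miR-194-2 and 226 on miR-194-1 alone. The reads that match both copies differed by a log2 fold change of 0.94 ± 0.67 (0.66 to 1.78 with each library left out in turn). Those placed on miR-194-2 were at 48.5, 13.0 and 50.6 CPM with taurocholate, against 30.6, 20.8 and 21.5 CPM untreated. Those placed on miR-194-1 were at 17.3, 2.38 and 22.8 CPM with taurocholate and 16.3, 1.76 and 6.81 CPM untreated. Nearly all reads placed on a copy run past the mature 3′ end, where bases are also added after cutting, so the split between copies is uncertain.

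miR-215-5p, which has the seed of miR-192-5p, stood at 88.8, 10.3 and 103 CPM with taurocholate and 127, 6.77 and 16.8 CPM untreated. It spanned 18.7-fold, against 2.66-fold for miR-192-5p. Its log2 fold change was 0.17 ± 1.17, and it was below 0 when taurocholate library 1 or 3, or untreated library 2 or 3, was left out (range over the 6 libraries left out -0.26 to 2.48).

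In the miR-200 family, miR-200b-3p was the most abundant arm, at 209, 24.9 and 260 CPM with taurocholate and 200, 21.3 and 43.7 CPM untreated. miR-200a-3p, which lies beside it in the genome, had 135, 23.3 and 191 CPM with taurocholate and 90.2, 8.78 and 15.4 CPM untreated. Untreated library 1 lies among the high libraries for both arms. The log2 fold changes were 0.66 ± 1.02 for miR-200b-3p and 1.38 ± 1.03 for miR-200a-3p. Leaving out each library in turn moved them between 0.27 and 2.29 and between 0.94 and 3.23, with the highest value of each without untreated library 1.

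miR-200c-3p and miR-141-3p come from the other cluster of the family. miR-200c-3p was at 87.9, 5.29 and 81.7 CPM with taurocholate and 65.1, 4.26 and 15.8 CPM untreated, a log2 fold change of 0.79 ± 1.15 (0.35 to 2.51 with each library left out in turn). miR-141-3p was at 13.8, 5.29 and 23.6 CPM with taurocholate and 8.79, 1.505 and 1.07 CPM untreated. Its log2 fold change was 1.76 ± 0.86 (1.299 to 3.38 with each library left out in turn), and its groups overlap through untreated library 1. All reads of miR-200a and miR-200c carry the files' status for repeated alignment although these lines list no other precursor, so whether other loci share these reads was not settled.

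miR-429-3p, the third gene of the cluster of miR-200a and miR-200b, had 3, 6 and 6 reads with taurocholate and 1, 3 and 1 reads untreated. In CPM its groups did not overlap (1.38 ± 0.417 with taurocholate and 0.479 ± 0.238 untreated, SD, n = 3 each), at a depth where 1 read moves a library by more than the gap between the groups. It was too sparse for the fit. It did not show the common pattern: taurocholate library 2, low for the other arms, had as many reads as library 3.

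All 13 member features that passed the low-count filter, of 22 with reads, had fold changes above 0, and the groups overlap in all 13. In edgeR's quasi-likelihood test across 377 miRNA features, 0 were called at an adjusted p under 0.05 (percent called 0), and 64 had an unadjusted p under 0.05 (17%), none of them a member. DESeq2 called 12 of 377 and none of the members, with 61 at an unadjusted p under 0.05. Groups of CPM did not overlap in 13.8% of all 377 features and in 0 of the 13 members. The median log2 fold change was 0.79 over the 13 members and -0.02 over all features. The members move together, so these are not 13 separate measurements. Leaving out untreated library 1, the untreated library in which the members are high, raised the members' median to 2.49. In that edgeR fit 10 of 14 members had an unadjusted p under 0.05, beside 48 of all 384 features, and 0 were called. Leaving out taurocholate library 2, in which they are low, raised the median to 1.33. There 4 of 14 members had an unadjusted p under 0.05 in edgeR, beside 63 of all 388 features, and 0 were called. Both rises follow from the members' known levels in the library left out, so they are no separate result. Without any of the other 4 libraries the members' median was between 0.42 and 0.57.

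To compare the patterns, the log2 CPM of each arm averaging at least 20 CPM was set against its own mean over the 6 libraries. The mean of the 7 arms stood at 1.27, -1.33 and 1.46 in the taurocholate libraries and 0.999, -1.60 and -0.81 in the untreated libraries. The root mean square distance of single arms to this common profile ranged from 0.26 for miR-200b-3p to 0.70 for miR-194-2-5p. Each of these arms is part of the mean it is compared with, which makes its distance smaller. The arms share their libraries and depth, and the libraries fall into separate clusters, so no correlation is given. miR-192-5p followed the order of the libraries with a smaller swing, at 0.65, -0.69 and 0.72 with taurocholate and 0.58, -0.69 and -0.57 untreated.

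**Figure D2:**
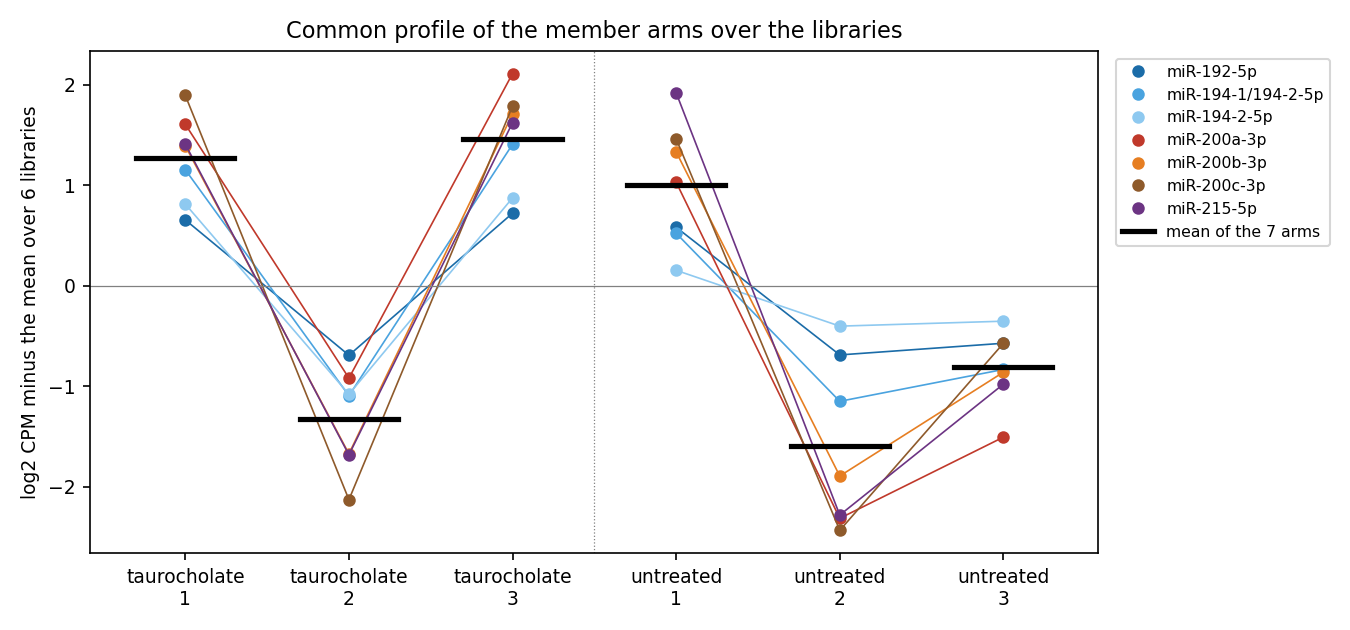
Centred log2 CPM of the 7 member arms averaging at least 20 CPM, in the 3 taurocholate libraries (left) and the 3 untreated libraries (right), with black bars at their mean. The bars are high in taurocholate 1 and 3 and untreated 1 (1.27, 1.46 and 0.999) and low in the others, and each group holds both kinds of library.

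Of the miRNAs outside these families, miR-375-3p, an islet and neuroendocrine miRNA, came nearest to the common profile by root mean square distance over the 6 libraries (0.61 on the log2 scale). That is nearer than the members miR-192-5p (0.63) and miR-194-2-5p (0.70), so the pattern is not particular to the members. miR-375-3p stood at 58.6, 6.08 and 77.5 CPM with taurocholate and 41.4, 2.51 and 7.16 CPM untreated. miR-146a-5p, induced by NF-κB signalling, was next (0.79). It was at 44.9, 13.5 and 53.9 CPM with taurocholate and 64.2, 17.3 and 51.6 CPM untreated, and unlike the members it was high in untreated library 3. The other nearest features were miR-218a-2-5p, miR-101a/101b-3p, miR-381-3p, miR-324-3p, let-7f-1-5p and miR-107-3p, at distances between 0.93 and 1.04. miR-218a-2-5p, miR-101a/101b-3p and let-7f-1-5p were high chiefly in taurocholate library 1, with 130, 284 and 230 CPM there.

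Outside the members, 11 miRNAs were listed as epithelial or as linked to the change between epithelial and mesenchymal states, and 10 had reads. Of their 14 features fitted edgeR called 0, DESeq2 called miR-203a-3p, and 4 had an unadjusted p under 0.05, beside 17% of all features. miR-203a-3p, a miRNA of stratified epithelium, was at 219, 52.9 and 45.9 CPM with taurocholate and 33.2, 5.02 and 11.1 CPM untreated. Its groups did not overlap, and its log2 fold change was 2.52 ± 0.88 with an adjusted p of 0.241 in edgeR's quasi-likelihood test and 0.0329 in DESeq2. miR-205-5p, also of squamous epithelium, was at 76.0, 37.0 and 41.0 CPM with taurocholate and 40.7, 35.1 and 41.9 CPM untreated, so it was flat apart from taurocholate library 1. The most abundant of the list were miR-34c-5p (3363 ± 720 CPM with taurocholate and 2775 ± 413 untreated), miR-101b-3p (3001 ± 626 CPM with taurocholate and 2525 ± 291 untreated) and miR-31a-5p (1834 ± 368 CPM with taurocholate and 2583 ± 1068 untreated; SD, n = 3 each).

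In the other lists edgeR called 0 features, and DESeq2 called 2 of the islet and neuroendocrine list beside miR-203a-3p in the squamous one. At an unadjusted p under 0.05 in edgeR, beside 17% of all features, the p53-linked list had 2 of 14 fitted features, both higher with taurocholate, and the list of liver, gut and kidney miRNAs 0 of 12. The 2 p53-linked features, miR-34b-3p and miR-34c-3p, are also among the 4 counted in the epithelial list above. The list of miRNAs that are mesenchymal or promote the mesenchymal state had 2 of 18. Of these miR-199a-3p, abundant in fibroblasts, was lower, with a log2 fold change of -0.34 ± 0.12 (adjusted p 0.241, edgeR quasi-likelihood). The other, miR-21-5p, a miRNA widely raised in tumours, was at 259460 ± 7531 CPM with taurocholate and 203320 ± 8540 CPM untreated (SD, n = 3 each; adjusted p 0.273, edgeR quasi-likelihood). Its groups did not overlap, as in 13.8% of all features, and it did not follow the members' pattern, with 251950 CPM in taurocholate library 2 and 194140 CPM in untreated library 1.

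Markers of other cell types were read beside the members' pattern, and their part in it was not tested. The islet and neuroendocrine list summed to between 54053 and 78560 CPM with taurocholate and between 65570 and 72456 CPM untreated. Of its 13 features fitted 5 had an unadjusted p under 0.05, beside 17% of all features. Of these 4 were from miR-7 and lower with taurocholate, and miR-7a-1-5p had an adjusted p of 0.193 in edgeR and 0.0362 in DESeq2. The other, miR-9a-1/9a-2/9a-3-5p, a neuronal miRNA, was at 21891, 11296 and 13936 CPM with taurocholate and 8728, 10573 and 10552 CPM untreated (adjusted p 0.193 in edgeR and 0.0329 in DESeq2), with no overlap of the groups. The muscle and stroma list summed to between 11877 and 16815 CPM with taurocholate and between 14924 and 17001 CPM untreated. Of its features 1 of 10 had an unadjusted p under 0.05, miR-199a-3p, which is also in the mesenchymal list. Within the muscle and stroma list miR-133a-3p, of muscle, was at 7.48, 4.23 and 11.3 CPM with taurocholate and at 55.4, 0.251 and 0.716 CPM untreated. The blood and immune list summed to between 2774 and 4631 CPM with taurocholate and between 2833 and 4790 CPM untreated (1 of 7). In it miR-451-5p, of red blood cells, was at 209, 32.5 and 516 CPM with taurocholate and 191, 34.4 and 1148 CPM untreated. It was low in taurocholate library 2 and untreated library 2, as the members were, and highest in untreated library 3, where the members were low. The liver miRNA miR-122-5p lay between 6.88 and 23.6 CPM with taurocholate and between 18.6 and 26.7 CPM untreated. The squamous list, miR-203a and miR-205, summed to 295, 89.9 and 87.2 CPM with taurocholate and 73.9, 40.1 and 53.4 CPM untreated (1 of 2). In bulk libraries, fewer cells that carry a miRNA and less of it per cell cannot be told apart.

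The reads of miR-215-5p differed from the rat sequence at a fixed base. Position 12, counted from 1 at the 5′ end of the mature sequence and written in DNA letters, carried T12A in 1075 of 1174 reads (91.6%). The share was 96.0% in taurocholate library 1 (285 of 297 reads, 95% exact interval 93.1% to 97.9%), 56.4% in library 2 (22 of 39, 39.6% to 72.2%) and 93.6% in library 3 (351 of 375, 90.6% to 95.9%). In the untreated libraries it was 95.9% in library 1 (373 of 389, 93.4% to 97.6%), 29.6% in library 2 (8 of 27, 13.8% to 50.2%) and 76.6% in library 3 (36 of 47, 62.0% to 87.7%). The share was highest in the libraries where the members were high. The intervals cover counting error only, since reads are not counted by molecule. A T12A read with any further mismatch would not be listed, as alignments carry at most 1.

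Reads with the reference base at position 12 were nearly level, at 3.29, 4.50 and 5.77 CPM with taurocholate and 4.23, 4.77 and 3.94 CPM untreated (11, 17 and 21 reads with taurocholate, against 13, 19 and 11 reads untreated). Reads with T12A were at 85.2, 5.82 and 96.5 CPM with taurocholate and 122, 2.01 and 12.9 CPM untreated. The swing of miR-215-5p over the libraries was thus in the T12A reads. With these reads left out, a step chosen after the data were seen, the log2 fold change of miR-215-5p was 0.05 in place of 0.17. A at this position is, as background, the base that miR-215-5p carries in human and in other mammals. Rat miR-192-5p, shown above, also has A at position 12, but its first base is C where that of miR-215-5p is A. Of the miR-215-5p reads 99.9% began at that first base, and 0% had a mismatch at the first base of the read. The source of the T12A reads was not tested. How much of the members' levels is expression of AR42J cells was not tested either.

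**Figure D3:**
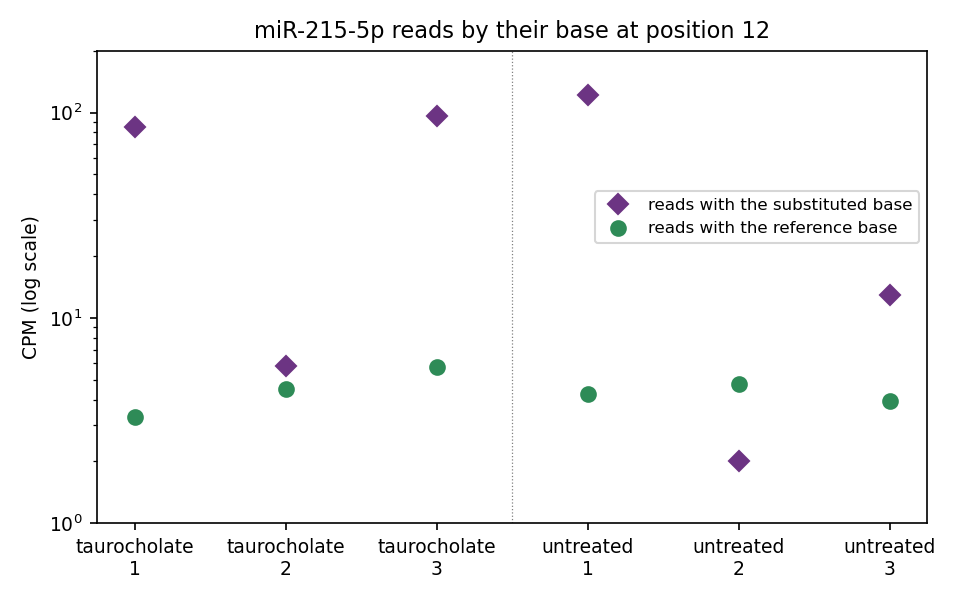
miR-215-5p reads in CPM, on a log axis, by their base at position 12, in the 3 taurocholate libraries (left) and the 3 untreated libraries (right). Reads with the reference base lie between 3.29 and 5.77 CPM, and reads with the substituted base between 2.01 and 122 CPM.

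A second change of this kind was in miR-141-5p, the minor arm of miR-141, where 18 of 23 covering reads (78.3%) carried G14A. By library these were 8 of 10, 0 of 1 and 9 of 11 reads with taurocholate and 1 of 1 read in untreated library 1, with no covering read in the other untreated libraries. A is, as background, also the base of miR-141-5p here in human and in other mammals. The search left out the first base and the last 5 bases of each read. Of 24 substitutions with at least 15 reads in the members at the remaining positions, these were the ones above 10%, and the next highest was in 0.484% of covering reads (A4C of miR-192-5p). The mature forms of miR-192-5p, miR-194-5p, miR-200a-3p, miR-200b-3p and miR-141-3p are, as background, identical in rat and human, so their reads hold no such base. Human miR-429 differs from the rat form by a pair of bases, and the files list alignments with at most 1 mismatch.

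In each precursor the reads came mostly from a fixed arm. The 5p arm held 99.98% of rno-mir-192 reads, 98.7% of rno-mir-215 reads, 94.6% of the reads placed on rno-mir-194-1 and 83.1% of those placed on rno-mir-194-2. In the miR-200 family the 3p arm dominated. The 5p arm held 10.9% of rno-mir-200a reads, 11.7% of rno-mir-141 reads, 0.698% of rno-mir-200b reads and 0.115% of rno-mir-200c reads. For rno-mir-141 the 5p share was 13.6% with taurocholate (24 5p and 152 3p reads) and 2.70% untreated (1 5p and 36 3p reads), with ranges over libraries of 11.3% to 17.9% and 0% to 3.57% that do not overlap. miR-141-5p was at 2.99, 0.793 and 3.02 CPM with taurocholate and 0.326, 0 and 0 CPM untreated, also with no overlap, at too few reads for the fit or the test of the arm ratio. Groups were apart in 24.4% of the 82 precursors tested for the arm ratio, and in 13.8% of the 377 features fitted. Of the 23 miR-141-5p reads that cover position 14, 18 carried G14A, and the source of these reads was not tested. No 5p read was found among 20 of rno-mir-429, which allows a share of up to 16.8% (95% exact interval). miR-200a-5p, the minor arm with most reads in the family, followed the common pattern, at 21.5, 2.12 and 20.1 CPM with taurocholate and 11.1, 1.003 and 1.07 CPM untreated, with a log2 fold change of 1.53 ± 1.09 (1.05 to 3.71 with each library left out in turn).

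The arm ratio could be tested in miR-194-2 alone of the members, where both arms had at least 10 reads in every library. The log2 ratio of 5p to 3p reads was 2.37, 1.99 and 2.26 with taurocholate and 2.01, 2.63 and 2.28 untreated. The difference was -0.10 (2.20 ± 0.20 with taurocholate and 2.30 ± 0.31 untreated, SD, n = 3 each), for which a two-sided exact permutation test gave p 0.6, or 0.807 after adjustment over the 82 precursors tested. The groups overlap, and over those precursors 24.4% had groups apart. The smallest p that 3 against 3 libraries allow is 0.1. Its direction turned to 0.46 in error-free reads. This leaves out the reads that match both miR-194 copies. With miR-194-5p of all copies over miR-194-2-3p the log2 ratio was 5.49 ± 0.44 with taurocholate and 5.11 ± 0.25 untreated (SD, n = 3 each), a difference of 0.38 in the other direction, with overlapping groups and no test. miR-194-2-3p itself was at 9.27, 3.17 and 10.4 CPM with taurocholate and 7.49, 3.26 and 4.30 CPM untreated.

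Read ends were compared in the 4 arms with at least 30 reads in every library, with p-values adjusted over 269 miRNA arms and 3 measures (807 tests). miR-192-5p had a pair of 5′ starts: 71.0% of its reads began at the first base of the sequence above and 29.0% a base later. The later start moves the seed to GACCUAU. Reads from the later start were 29.6%, 27.0% and 31.5% with taurocholate and 26.9%, 29.0% and 26.5% untreated. The leading start had means of 70.5% ± 2.26 with taurocholate and 72.5% ± 1.35 untreated (SD, n = 3 each; exact permutation p 0.2, adjusted p 0.761).

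The 3′ ends of miR-192-5p were mixed too. From the leading start, reads of 21 nt made up 30.5%, 29.4% and 31.0% of the arm with taurocholate and 33.9%, 31.4% and 31.9% untreated. Reads of 23 nt from that start made up 21.2%, 28.3% and 20.9% with taurocholate and 23.9%, 23.9% and 25.9% untreated, while reads of 22 nt took at most 7.70%. A mismatch at the last base was found in 58.8% of the reads, and a last T that the precursor lacks in 40.6% ± 5.26 with taurocholate and 43.3% ± 1.23 untreated (SD, n = 3 each). A mismatched last G was in 5.59% of reads in taurocholate library 1 and 3.34% in untreated library 1, against at most 1.14% elsewhere.

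The starts of miR-194-5p and miR-200a-3p were nearly uniform, with between 99.28% and 100% of reads at the leading start in each library. miR-200b-3p had a later start in 7.54% of its reads, which moves its seed to AUACUGC. Its leading start held 92.3%, 92.6% and 89.4% of reads with taurocholate and 94.1%, 92.9% and 92.6% untreated. The groups did not overlap, the nearest libraries being 92.55% with taurocholate and 92.62% untreated, and the exact permutation p was 0.1, or 0.646 after adjustment. Over all 269 arms, 9.67% had groups apart in this measure.

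miR-194-5p reads were shorter with taurocholate, at 21.70, 21.79 and 21.71 nt, than in untreated cells, at 21.84, 22.16 and 22.06 nt. The groups did not overlap, with a difference of -0.283 nt, an exact permutation p of 0.1 and an adjusted p of 0.646. Groups were apart in mean length in 25.7% of all arms, and lower with taurocholate in 18.2%, so this is near the background. Inside each group the libraries with high member levels had the shorter reads. For miR-200b-3p the mean lengths were 22.5, 22.7 and 22.7 nt with taurocholate and 22.5, 23.2 and 23.0 nt untreated (exact permutation p 0.3). For miR-200a-3p they were 22.3, 22.4 and 22.4 nt with taurocholate and 22.3, 22.5 and 22.6 nt untreated (exact permutation p 0.3). In both of these arms the 3 libraries with high member levels were the 3 with the shortest reads.

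The share of reads with a mismatch or gap was 66.4% ± 0.965 with taurocholate and 67.1% ± 3.20 untreated for miR-192-5p (SD, n = 3 each here and below). For miR-200b-3p it was 56.4% ± 0.823 with taurocholate and 64.0% ± 6.98 untreated. It was 33.7% ± 6.70 with taurocholate and 34.7% ± 3.70 untreated for miR-194-5p, and 39.5% ± 5.54 with taurocholate and 40.8% ± 7.16 untreated for miR-200a-3p. The exact permutation p of these 4 was between 0.3 and 1, and the adjusted p at least 0.832. Groups overlap in all 4, and were apart in 11.2% of all arms.

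**Figure D4:**
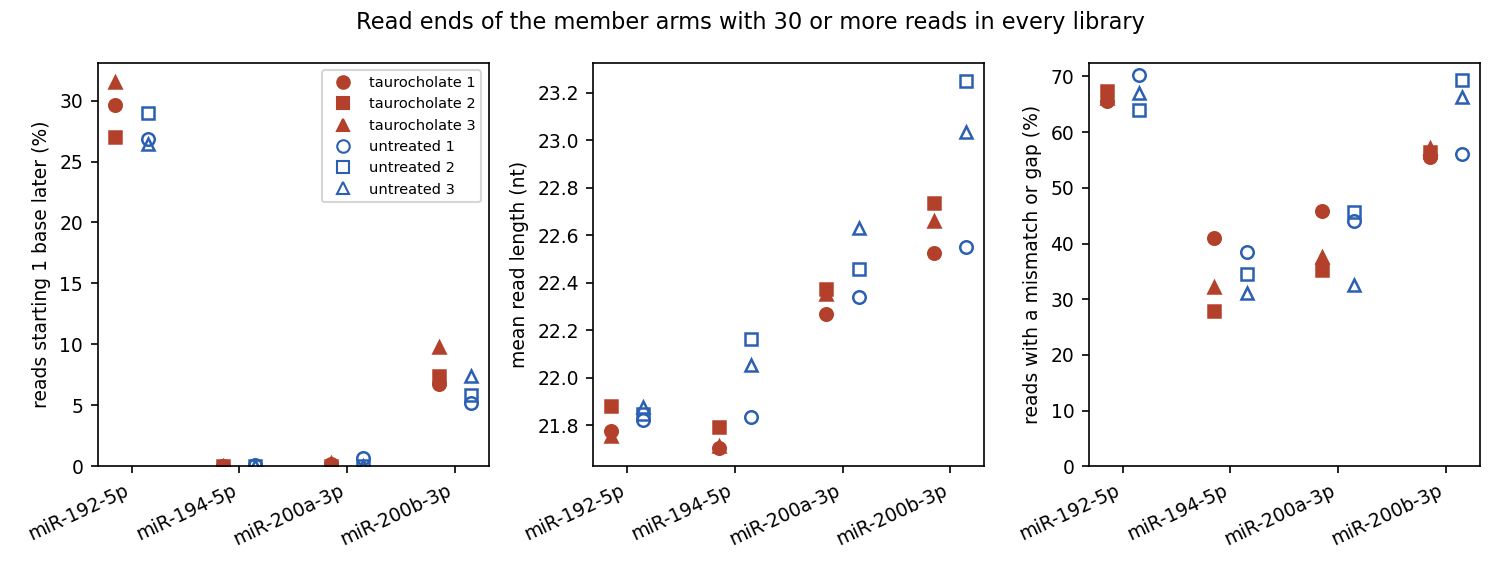
Reads starting a base later (left, percent), mean read length (middle, nt, axis not from 0) and reads with a mismatch or gap (right, percent) for the 4 arms with at least 30 reads in every library; taurocholate libraries (filled) are left of untreated libraries (open). The later start is near 29% in miR-192-5p and 7.54% in miR-200b-3p, and the lengths of miR-194-5p are 21.70 to 21.79 nt with taurocholate and 21.84 to 22.16 nt untreated.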

How the data were processed

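Small RNA of AR42J cells was sequenced in 6 libraries. Per the labels' protocols, RNA was deacylated, end-repaired and demethylated, and size-selected on a gel. Per the submitters' processing notes, FastQC, cutadapt and Novoalign 2.07.11 were used. The genome build is not given in the sources used here. Values deposited by the authors are counts: each line is an alignment of a distinct read sequence to a miRNA precursor with its number of reads, 16 to 28 nt long and with at most 1 mismatch. tRNA alignments were not used.

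Each read sequence was counted once per library by its reads. Reads matching several precursors formed features of their own, and arms were split by position; positions include 5 bases before the RefSeq hairpin (265 of 266 precursors checked). CPM are scaled to the library's miRNA reads. Features were fitted with edgeR 4.0.16 (R 4.3.3; quasi-likelihood, TMM, filterByExpr, Benjamini-Hochberg), group as the sole term, calling adjusted p under 0.05. DESeq2 1.42.0 was an alternative, and fold changes carry TMM factors. Read ends and arm ratios were tested by exact permutation, two-sided (scipy 1.17.1). The edgeR test was also run on counts simulated from the means and dispersions of these data, and the permutation test on made-up values. The reads of miR-194-5p were pooled over its copies for read ends. p-values were adjusted over all miRNA arms, more than the members that were planned.

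The members and lists were chosen with earlier results of these data known. Named miRNAs are the members, the 8 others of at least 20 CPM nearest their mean profile (log2 CPM, prior of 0.5 reads), and of each list at most 3 of the highest; others named, miR-203a, miR-205, miR-199a, miR-7a, miR-9a, miR-133a, miR-451 and the reads by base, were chosen after their values were seen. Lists cover miRNAs that are epithelial or linked to the change between epithelial and mesenchymal states, and p53-linked miRNAs. They cover those of liver, gut and kidney, and those that are mesenchymal or promote the mesenchymal state. Marker lists are of acinar, islet and neuroendocrine, muscle and stroma, blood and immune, liver and squamous cells. Some miRNAs are in several lists. Replicate numbers come from the labels' titles, which describe no pairing; deviations of same-numbered libraries correlated at 0.29, 0.61 and 0.19 across features, while taurocholate 3 with untreated 1, of different numbers, reached 0.37; a fit with the number as a block was run as an alternative. Sequences are RefSeq's (GRCr8).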

Additional observations from a re-analysis of the deposited data

How the results depend on the processing

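Of the alternatives for the count of called features, DESeq2 gave 12 and every other one 0. Besides leaving out a library, the alternatives gave 121 values, of which 116 were counted as unchanged. For member fold changes this means the same direction and the same side of the threshold. Members to which DESeq2 gave no adjusted p were counted there as not called. Summed levels were counted as unchanged when they moved by less than the mean SD of the groups. Read ends and arm ratios were judged by direction alone. Counting each distinct read sequence once turned the difference in the share of reads with a mismatch or gap to 1.73 points for miR-192-5p, 4.94 for miR-194-5p and 8.68 for miR-200a-3p, and error-free reads turned the arm ratio of miR-194-2 to 0.46. The cause was not tested. Leaving out each library in turn gave 174 values, 15 of them with the opposite sign. The ranges were -0.26 to 2.48 for the log2 fold change of miR-215-5p, and -0.25 to 0.063 for the arm ratio of miR-194-2. For the share with a mismatch or gap they were -2.33 to 0.879 points for miR-192-5p, -4.69 to 1.86 for miR-194-5p and -5.36 to 1.22 for miR-200a-3p. For the leading start they were -0.0718 to 0.274 points for miR-194-5p and -0.170 to 0.191 for miR-200a-3p. The summed difference ranged from 106 to 371 CPM for the miR-200 family and from 327 to 1279 CPM for the miR-192 group. With the replicate block no feature was called, the log2 fold change of miR-215-5p was 0.81, and the block changed no other call. With 3 libraries a group, exact tests cannot pass 0.05, and arms under 30 reads in a library were not tested for read ends.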

Other observations

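Substitutions outside the members were ranked by how near their reads, in log2 CPM, came to the members' common profile, a search made after the T12A reads had been seen. Of 818 with at least 60 reads, T12C of miR-155-5p, a miRNA of activated immune cells, came first, at a root mean square distance of 0.44. It was in 30, 6 and 35 reads with taurocholate (2.42%, 0.684% and 2.69% of covering reads) and in 25, 4 and 13 reads untreated (2.55%, 0.312% and 1.17%). Reads of miR-155-5p with the reference base were at 362, 230 and 348 CPM with taurocholate and 310, 320 and 395 CPM untreated, without that pattern. A14C of miR-140-3p was next (distance 0.81), in 73, 38 and 52 reads with taurocholate and 31, 15 and 22 untreated. G10A of miR-151-3p, counted from the leading read start, followed (0.81), in 74, 13 and 110 reads with taurocholate and 124, 6 and 43 untreated, or 0.821%, 0.0779% and 0.860% of covering reads with taurocholate against 1.58%, 0.0581% and 0.627% untreated. Next came A10C of miR-99b-5p, G9C of miR-100-5p, A6C of miR-378a-3p, C16G of let-7d-5p and A15C of miR-140-3p, at distances between 0.81 and 0.86. As background, human miR-155-5p carries C and human miR-151-3p carries A at these positions. For the other changes named here no match to a human base is given, so the ranking does not tell where such reads come from. The source of these reads was not tested.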
